A study of Mus musculus with 15 samples.

Results

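Ethanol feeding was compared with chow feeding in mouse livers that had received no carbon tetrachloride (CCl4), a solvent that injures the liver. The comparison used 6 of the 15 liver messenger RNA libraries of a series on acute-on-chronic alcoholic liver injury. They were picked by label alone, and every gene of the deposited count tables was considered. The ethanol arm held library 6, taken at day 23, and libraries 13, 14 and 15, taken at day 20. The chow arm held library 5, taken at day 23, and library 12, taken at day 20. The 2 days belong to different substudies in the labels, and substudy was a term of the fit. Were all libraries weighted alike, the day 20 effect would have a weight of 0.6 and the day 23 effect 0.4. The fit models counts, so the weights shift with the counts of each gene. For the gene Krt4, log2 changes of 3.62 at day 20 and 9.92 at day 23 gave a pooled 8.78. All mice were adult C57BL/6 males. Ethanol was infused through a gastric feeding tube at up to 25 g/kg per day for 3 weeks. OO is the labels' own name for arms without CCl4; its meaning is not given. Ethanol arms also carry HFD in their labels, so ethanol and that diet cannot be told apart. At day 20 both arms are labelled OO again in the second phase (OO/chow and OO/HFD/Etoh), and at day 23 neither is. For orientation, the 2 OO libraries of day 0 are given beside some results. The ethanol effect was also set against that in CCl4 livers at day 20 (2 chow and 3 ethanol libraries), where the mice had received 0.2 ml/kg CCl4 2 times a week for 6 weeks and then 0.5 of that dose during feeding. Whether every library stems from its own mouse is not stated, and p-values therefore cover only the spread between samples, which may be technical.

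Hepatocytes oxidise ethanol to acetaldehyde and then to acetate, with alcohol dehydrogenase and the cytochrome P450 Cyp2e1 at the first step and aldehyde dehydrogenases at the next. Nuclear receptors set much of the enzyme content of these cells: CAR and PXR control P450s that handle foreign compounds, PPARA controls fatty acid oxidation, and NRF2 controls glutathione enzymes and export pumps. In male mice, pulses of growth hormone keep one set of liver genes high and another, the female-biased set, low.

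The 6 libraries held 10973803 to 28843258 gene counts. The defining hepatocyte transcripts Alb, Ttr, Apoa1 and Hnf4a were present in all 6. RNA of other tissues differed between libraries, given here as summed CPM (counts per 1000000 gene counts) without scaling. Exocrine pancreas genes other than Dmbt1, which encode digestive enzymes, summed to 212 in ethanol library 6 and 248 in chow library 12, against 14 to 22.7 in the other 4, and genes of the pancreas list were left out of every count below. Skeletal and smooth muscle genes summed to 116 in library 6 and 556 in ethanol library 14, against 8.67 to 19.3 in the rest. A list of 31 stratified squamous epithelium genes, written after the data were seen, summed to 166 in library 6 and to at most 3.93 in the other 5. Library 13 stood apart from the other ethanol libraries on the second principal component of the 6 libraries (-53.3, against -6.3 to 23.0). None of the sequencing lanes named in the tables held libraries of both arms, so lane and feeding cannot be told apart within the 6 libraries.

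Of the 14748 genes tested, 1460 (9.9%) passed edgeR's quasi-likelihood test at a Benjamini-Hochberg adjusted p under 0.05, and such genes are called here. Ethanol livers had more RNA of 780 genes (5.29%) and less of 680 (4.61%). List counts below are to be read beside these shares. The share called was near or below 9.9% for urea cycle and amino acid (11.6%), glycolysis (11.1%) and lymphocyte genes (8.7%). The same holds for hepatocyte factors (7.41%), the growth hormone axis (5.56%), cell division (5.26%) and acute phase genes (3.12%). Calls there are not read as results about the lists. Changes of at least 2-fold made up 239 of the higher and 383 of the lower calls. All 4 ethanol libraries lay above both chow libraries for 1970 genes (13.4%) and below both for 2030 (13.8%), and the arms did not overlap for 1307 of the 1460 called genes. The sign was the same in both substudies for 1456 of the calls, against 68% of all genes tested. The calls were picked on these same 6 libraries. Their shared sign and lack of overlap follow in part from that choice and are no separate test. The spread was estimated with the replicates of all 15 libraries. A fit on the 6 libraries alone, with 3 residual degrees of freedom, called 147 genes. Each substudy has 1 chow library, so leaving one out leaves the other substudy to decide: 518 genes were called without library 5 and 90 without library 12. Without ethanol libraries 6, 13, 14 or 15 the counts were 519, 2425, 1099 and 1080. Of the 138 genes named by rule, 119 were called: 78 of these were also called without library 5, 36 without library 12, 77 without library 6, 119 without library 13 and 108 without library 14 or 15. Only 26 of the 119 were called under all 21 alternative settings. Where leaving out a library ended the call of a gene named by rule and described with its CPM values, the adjusted p without that library is given; genes given by their log2 change alone are only in these counts.

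**Figure D1:**
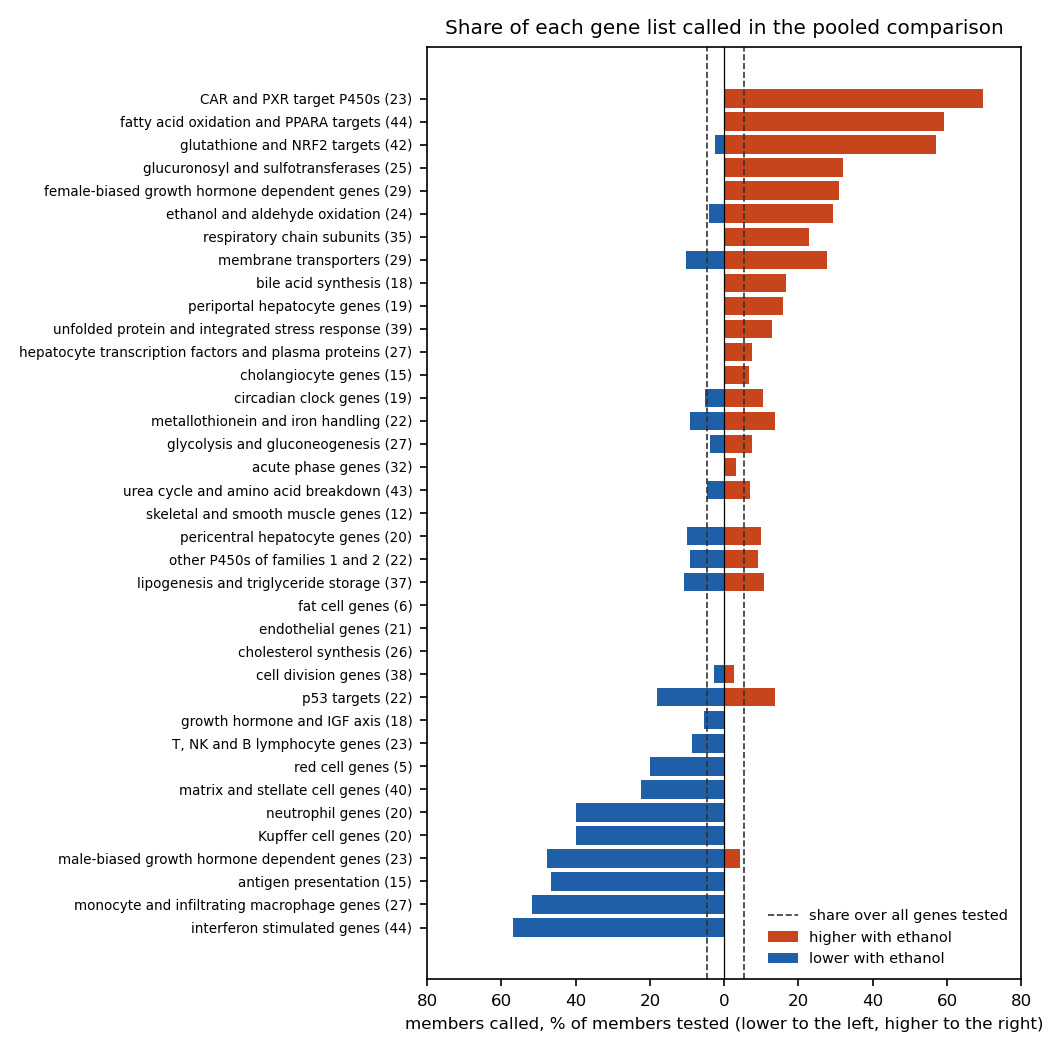
Share of the tested members of each gene list that were called higher (right, orange) or lower (left, blue) with ethanol, in percent, with the number tested in brackets; dashed lines give the share over all 14748 genes (5.29% higher, 4.61% lower). P450s of the CAR and PXR list, fatty acid oxidation genes and NRF2 genes lie farthest to the right, and interferon stimulated genes farthest to the left.

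P450s under control of CAR and PXR were the group with the largest share of higher calls. Of the 23 tested, 16 rose and 0 fell, with a median log2 change of 2.37, against -0.01 over all genes. Values below are CPM after TMM scaling, given for chow libraries 5 and 12 and then for ethanol libraries 6, 13, 14 and 15. Cyp2b10, the classical CAR target, stood at 4.81 and 4.27 CPM with chow and 2432, 991, 1449 and 839 CPM with ethanol. All 4 ethanol libraries lay far above both chow libraries, and the log2 change was 8.43 ± 0.50 (SE; adjusted p = 8.14e-06, edgeR). In mm10 it spans 25897620 to 25926624 of chromosome 7 (plus strand). Cyp2c29 was at 1350.4 and 1018 CPM with chow and 11673, 8476, 8689 and 9770.0 CPM with ethanol, a log2 change of 3.13 ± 0.20 (adjusted p = 9.03e-06), with ethanol libraries close to each other. Cyp2c55 was at 4.23 and 3.56 CPM with chow and 92.3, 57, 63.8 and 75.9 CPM with ethanol and rose by 4.31 on the log2 scale. Cyp2a5, which oxidises coumarin and nicotine, was at 426 and 200.3 CPM with chow and 2726, 3449.9, 2761 and 3303 CPM with ethanol (log2 change 3.44 ± 0.51; adjusted p = 0.0024, or 0.112 without library 12). Its relative Cyp2a22 was at 0.845 and 1.11 CPM with chow and 149, 65.9, 111 and 141 CPM with ethanol, with a log2 change of 6.99 ± 0.57. The arms did not overlap for Cyp2a22, which the rule that named it requires. Cyp3a11, the main PXR target, rose less (1032 and 1679.9 CPM with chow and 3925, 2675, 3504 and 4108 CPM with ethanol; log2 change 1.37 ± 0.30, adjusted p = 0.0144, or up to 0.16 without library 5, 6 or 12). Its 2 day 0 libraries were above both chow libraries: 1 at 3803 CPM, in the range of the ethanol libraries, and 1 at 4476 CPM, above all 4 of them. Por, the electron donor of microsomal P450s, rose by 1.74 and Nr1i3, which encodes CAR itself, by 1.33 on the log2 scale. Reads that fit more than 1 place were not counted (21.8% to 25.2% of reads in these libraries), so single members of the closely related Cyp2a, Cyp2b and Cyp2c groups are uncertain. The number of higher calls in the list was 13 in the 6-library fit, 10 without library 5 or 6 and 8 without library 12.

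**Figure D2:**
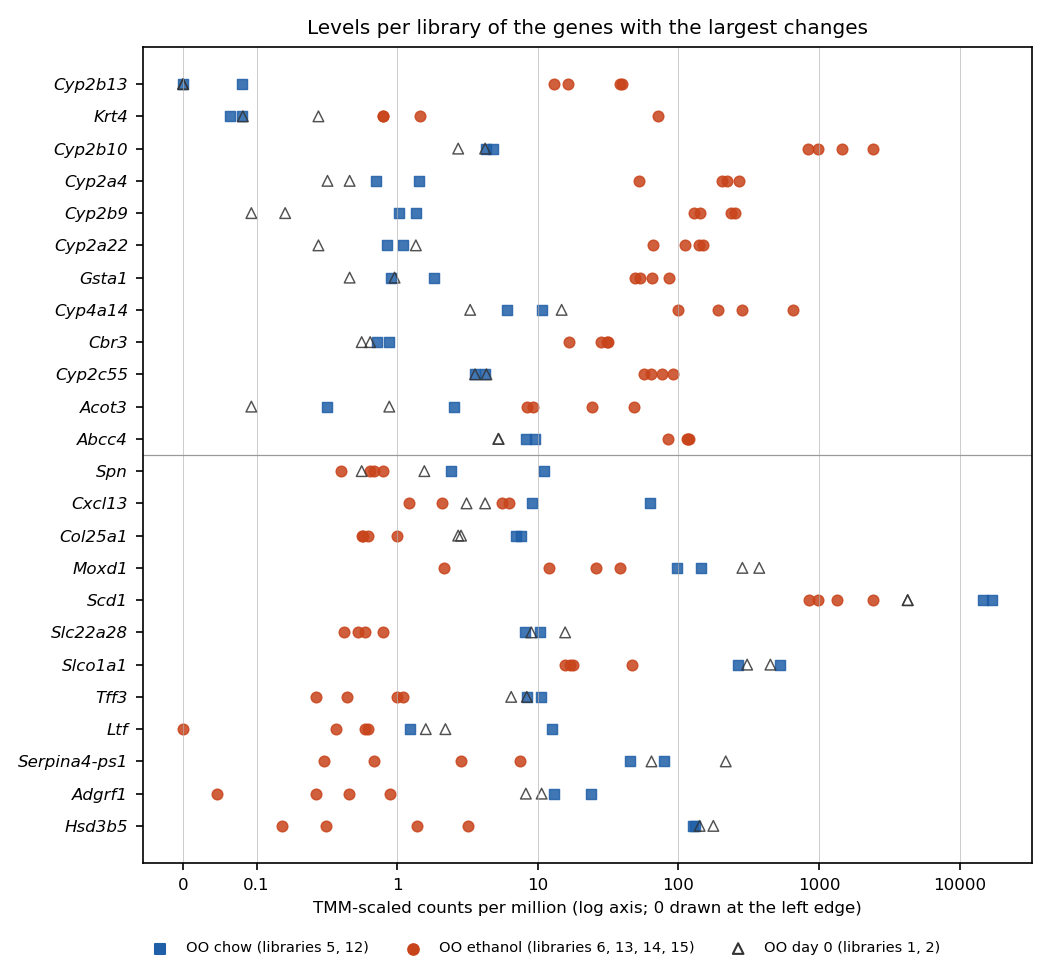
Levels per library (CPM, log axis) of the 24 genes with the largest changes among those whose arms do not overlap: chow libraries as blue squares, ethanol libraries as orange circles and day 0 libraries as open triangles, genes higher with ethanol above the line. The day 0 libraries lie with or near the chow libraries for most of these genes. For Scd1 they lie between the arms, at 4272 and 4272 CPM. For Cxcl13 they lie in the ethanol range, at 4.22 and 3.11 CPM, and for Spn below both chow libraries, at 1.56 and 0.559 CPM.

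Among P450s of families 1 and 2 outside that list, 2 of 22 rose and 2 fell. Cyp2d10 rose by 0.98 and Cyp2d26 by 0.72 on the log2 scale, whereas Cyp2c44 (-0.78) and Cyp2u1 (-1.27) fell. Each of these 4 calls was lost without library 12, and all but that of Cyp2d10 also without library 5 or 6.

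In the list of ethanol and aldehyde oxidation, 7 of 24 genes rose and 1 fell. Adh1, the main liver alcohol dehydrogenase, was at 1487 and 1624 CPM with chow and 2524, 2932, 3098 and 3299 CPM with ethanol, and the log2 change was 0.87 ± 0.17 (adjusted p = 0.0084, or 0.213 without library 12). Both arms were tight and did not overlap. Aldh1a1, a cytosolic aldehyde dehydrogenase that also makes retinoic acid, was at 1028 and 1117 CPM with chow and 2768, 3244, 2854 and 4254 CPM with ethanol (log2 change 1.55 ± 0.23; adjusted p = 0.00231, or 0.112 without library 12). Aldh3a2, which oxidises fatty aldehydes, rose by 1.1, and Akr1b7, an aldo-keto reductase at 0.325 and 0.237 CPM with chow and 2.9, 1.39, 1.41 and 3.45 CPM with ethanol, by 3.10. Acss2, the cytosolic enzyme that turns acetate into acetyl-CoA, fell from 479 and 326 CPM to 169, 115, 194 and 189 CPM (log2 change -1.19). Cyp2e1 did not pass: it was at 4238 and 3874 CPM with chow and 5311, 5859, 2909.5 and 3527 CPM with ethanol, the arms overlapped, and the log2 change was 0.18 ± 0.40 (adjusted p = 0.825). Aldh2, the mitochondrial enzyme for acetaldehyde, was at 960.2 and 938 CPM with chow and 1237, 1186, 1081 and 1114 CPM with ethanol (log2 change 0.31 ± 0.18; adjusted p = 0.314). Aldh3a1 was among the higher calls, yet it was at 2.87, 0, 0.0522 and 0.0885 CPM with ethanol, and only library 6, where squamous epithelium genes were high, carried it; its part in the call was not tested. Leaving out a library ended the call of Akr1b7 (adjusted p of up to 0.16 without library 5, 6 or 12). Without library 12, 0 genes of the list were called higher, and without library 5 or 6 it was 2.

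Glutathione enzymes and other NRF2 targets rose as a group: 24 of 42 were called higher and 1 lower, with a median log2 change of 1.17. Gsta1, a glutathione transferase, was at 0.91 and 1.82 CPM with chow and 48.9, 52.9, 65.2 and 85.4 CPM with ethanol, a log2 change of 5.42 ± 0.61 (adjusted p = 0.000417). Cbr3, a carbonyl reductase, was at 0.715 and 0.869 CPM with chow and 28.3, 31.8, 31 and 16.6 CPM with ethanol (log2 change 5.09 ± 0.36; adjusted p = 1.52e-05). Abcc4, which pumps conjugates and cyclic nucleotides out of the cell across the basolateral membrane, was at 8.19 and 9.48 CPM with chow and 118, 119.9, 116 and 84.5 CPM with ethanol, a log2 change of 3.64 ± 0.23 (adjusted p = 8.14e-06). For these 3 genes the lowest ethanol library lay far above the higher chow library, and the 2 day 0 libraries lay at the chow level (5.23 and 5.27 CPM for Abcc4). Nqo1, the quinone reductase used as a standard NRF2 readout, was at 6.96 and 7.51 CPM with chow and 37, 34.7, 46.4 and 37.1 CPM with ethanol (log2 change 2.40 ± 0.36; adjusted p = 0.00228, or 0.0859 without library 12). Gstm3 was at 17.9 and 64.9 CPM with chow and 345, 624, 405 and 562 CPM with ethanol, with chow libraries that differed between themselves (log2 change 3.49 ± 0.47; adjusted p = 0.00139). Mgst3, a membrane-bound relative, rose by 2.61, Cbr1 by 2.08, and Ephx1, the microsomal epoxide hydrolase, by 1.87 on the log2 scale. Gclc, the catalytic subunit that starts glutathione synthesis, rose by 0.84 (adjusted p = 0.0224), while its partner Gclm changed by 0.50 and did not pass (adjusted p = 0.073). Txnrd1, a thioredoxin reductase and NRF2 target, did not pass either, at 158 and 154 CPM with chow and 134, 214, 194 and 168 CPM with ethanol. The ferritin chains Ftl1 and Fth1, which store iron, rose by 1.04 and 1.15. G6pdx, which feeds the pentose phosphate pathway and is also a lipogenic gene, was the member that fell (-0.76). The list had 18 higher calls in the 6-library fit, 18 without library 5 or 6 and 10 without library 12.

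The antioxidant response element, the site NRF2 binds, was searched as TGACNNNGC on both strands in RefSeq promoter windows (GRCm38.p6; 250 bases before to 50 after each start). Windows were found for 20 of the 24 NRF2-list genes called higher, and 3 of their 25 windows (12%) held a match, against 12.4% of all 32851 windows and 14.3% of the windows of genes tested. Over all tested genes of the list, called or not, 11 of 49 windows (22.4%) held a match. The 3 matching windows of genes called higher belonged to Abcc4 and Srxn1. The stretches around the Abcc4 matches are shown because Abcc4 was called under every setting, the match in capitals.
Abcc4, chr14:118706220-118706270, minus strand: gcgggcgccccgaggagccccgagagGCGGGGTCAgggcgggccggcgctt
Abcc4, chr14:118676932-118676980, minus strand: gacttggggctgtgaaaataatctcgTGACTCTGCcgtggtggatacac
In the upper stretch the match is on the opposite strand. A match of letters in these windows is not a binding measurement.

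Enzymes that attach glucuronic acid or sulfate, the next step of detoxification, were called higher in 8 of 25 cases and lower in 0. Ugt1a9 was at 17.3 and 19.8 CPM with chow and 179.8, 180.1, 196 and 227 CPM with ethanol (log2 change 3.36 ± 0.38; adjusted p = 0.000505), with the 2 day 0 libraries between the arms at 42.9 and 86.5 CPM. Ugt2b34 rose by 1.55, Ugt2b35 by 1.64, and Ugt1a1, which conjugates bilirubin, by 1.18 on the log2 scale. Sult3a1, a sulfotransferase that is female-biased in mice, had 3 counts in the chow libraries together and 267 in the ethanol libraries, a ratio of scaled counts of 37.2 (12.6 to 182, 95% interval for counting error only). With single libraries left out, the log2 change of Sult3a1 ran from 4.47 to 5.75, and its call was lost without library 5, 6 or 12. Without library 12 a single member was called higher, and without library 5 or 6 it was 2.

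Of 29 membrane transporters 8 rose and 3 fell. Export pumps were among those that rose: Abcc2, the canalicular conjugate pump, by 0.71, Abcb1a by 1.73 and the sterol half-transporter Abcg5 by 0.64 on the log2 scale. Those that fell were Slco1a1, Slc22a28 and Slc10a2. Slco1a1, a male-biased organic anion carrier, was at 532 and 266 CPM with chow and 17.8, 16.9, 15.7 and 46.8 CPM with ethanol, a log2 change of -3.99 ± 0.44 (adjusted p = 0.000397). Slc22a28 was at 10.4 and 8.06 CPM with chow and 0.528, 0.594, 0.418 and 0.797 CPM with ethanol (log2 change -3.98 ± 0.34; adjusted p = 4.77e-05). Slc10a2, a bile acid carrier, fell by 0.84. In the 6-library fit 0 members were called higher and 2 lower.

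Bile acid synthesis changed little as a list, with 3 of 18 genes higher and 0 lower. Cyp39a1, which hydroxylates an oxysterol, was at 5.46 and 6.8 CPM with chow and 34, 20.4, 24.3 and 27.5 CPM with ethanol and rose by 2.16; its day 0 libraries were at 21.5 and 31.9 CPM, as high as with ethanol. Akr1d1 rose by 0.80, and Nr1h4, which encodes the bile acid receptor FXR, by 0.53. Cyp7a1, the rate-limiting enzyme, was at 299.9 and 182 CPM with chow and 43.8, 11.9, 153 and 66.2 CPM with ethanol: all 4 ethanol libraries lay below both chow libraries, but the log2 change of -1.88 ± 0.88 did not pass (adjusted p = 0.201). Cyp7b1 (-0.80 ± 0.29; adjusted p = 0.106) and Cyp8b1 (0.59 ± 0.45; adjusted p = 0.443), both hydroxylases of the pathway, did not pass.

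Fatty acid oxidation genes and PPARA targets rose together, 26 of 44 with 0 lower and a median log2 change of 0.66. Cyp4a14, an omega-hydroxylase that responds strongly to PPARA, was at 10.7 and 6.01 CPM with chow and 649.5, 192, 284 and 99.1 CPM with ethanol (log2 change 5.41 ± 0.81; adjusted p = 0.00243, or 0.0578 without library 12). Cyp4a10 was at 46.7 and 25.2 CPM with chow and 293, 311, 187 and 106 CPM with ethanol, a log2 change of 2.85 ± 0.64, with one day 0 library at 76.9 CPM, above both chow libraries. Vnn1, a pantetheinase, was at 27.9 and 20.9 CPM with chow and 132, 146, 70.3 and 86.7 CPM with ethanol and rose by 2.25. The mitochondrial and peroxisomal enzymes Ech1 and Eci2 rose by 0.97 and 1.09, and the medium-chain dehydrogenase Acadm by 0.70 on the log2 scale. Acot3, an acyl-CoA thioesterase, was at 2.54 and 0.316 CPM with chow and 24.2, 9.21, 48.1 and 8.41 CPM with ethanol (log2 change 4.26 ± 0.94; adjusted p = 0.0158, or 0.235 without library 12), and its 2 chow libraries were far apart. Ppara itself (0.16; adjusted p = 0.807) and Cpt1a (0.07; adjusted p = 0.897) did not pass. Fgf21, a hormone under PPARA control, was at 0.975 and 1.34 CPM with chow and 22.6, 13.2, 3.97 and 2.92 CPM with ethanol and did not pass (log2 change 3.27 ± 1.09; adjusted p = 0.0774). Leaving out a library ended the calls of Cyp4a10 (adjusted p of up to 0.237 without library 5, 6 or 12) and Vnn1 (adjusted p = 0.1 without library 12). In the 6-library fit 6 members were called higher, and without library 12 it was 0.

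Lipid synthesis and storage genes moved both ways, 4 of 37 higher and 4 lower. Scd1, the desaturase that makes monounsaturated fatty acids, was at 16878 and 14736 CPM with chow and 853, 1337, 2413 and 985 CPM with ethanol. It fell in every ethanol library, with a log2 change of -3.67 ± 0.51 (adjusted p = 0.00157, or 0.0615 without library 12). The day 0 libraries were at 4272 and 4272 CPM, below chow and above ethanol. Elovl5, an elongase, was at 845 and 616 CPM with chow and 247, 211, 222 and 242 CPM with ethanol (log2 change -1.58 ± 0.12; adjusted p = 2.27e-05), and its day 0 libraries, at 268 and 259.8 CPM, lay beside the ethanol libraries. Scd2 and Lpl, lipoprotein lipase, fell by 1.75 and 1.19 on the log2 scale. Apoa4, an apolipoprotein of triglyceride-rich particles, was at 115 and 74.1 CPM with chow and 1789, 397, 366 and 574 CPM with ethanol, with library 6 far above the others, and rose by 3.11. Cd36, a fatty acid carrier, was at 107 and 89.2 CPM with chow and 202, 181, 206 and 211 CPM with ethanol, and Vldlr, the receptor for very low density lipoprotein, at 2.47 and 1.82 CPM with chow and 22.3, 6.04, 11.4 and 6.37 CPM with ethanol; they rose by 1.06 and 2.61. Both calls ended with a library left out: Cd36 (adjusted p = 0.229 without library 12) and Vldlr (adjusted p = 0.0508 without library 6). Fabp5, a fatty acid binding protein, was at 134 and 75.7 CPM with chow and 11.4, 7.63, 10.8 and 9.39 CPM with ethanol, a log2 change of -3.24 ± 0.31 (adjusted p = 0.000121). Fasn, fatty acid synthase, was at 2575 and 1769 CPM with chow and 626, 443, 2204 and 1104 CPM with ethanol and did not pass (log2 change -1.15 ± 0.60; adjusted p = 0.251). Of 26 cholesterol synthesis genes 0 were called, with a median of -0.04. Hmgcs1, an early enzyme of the pathway, stayed within the spread between libraries (-0.08 ± 0.33).

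Male-biased genes that depend on growth hormone pulses were lower with ethanol: 11 of 23 fell and 1 rose, with a median log2 change of -1.49. Hsd3b5, a steroid enzyme of male liver, was at 128 and 132 CPM with chow and 0.151, 1.39, 0.313 and 3.19 CPM with ethanol, a log2 change of -7.25 ± 0.59 (adjusted p = 3.53e-05). Its day 0 libraries, at 142 and 177 CPM, stood with chow. Moxd1 was at 144 and 97.1 CPM with chow and 2.15, 38.3, 25.9 and 12 CPM with ethanol (log2 change -3.56 ± 0.80; adjusted p = 0.0169, or up to 0.0661 without library 5 or 6), and the complement gene C6 was at 373 and 462 CPM with chow and 78.8, 149, 95.6 and 120.4 CPM with ethanol (log2 change -2.05 ± 0.25; adjusted p = 0.000672). Library 6 had the lowest level of all 3 genes. The member that rose was Trib3, a stress-induced pseudokinase, at 4.16 and 3.24 CPM with chow and 64.3, 15, 14.6 and 9.74 CPM with ethanol.

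Female-biased genes rose in 9 of 29 cases and fell in 0, with a median of 1.33. Cyp2b9 was at 1.37 and 1.03 CPM with chow and 253, 235, 129.8 and 143 CPM with ethanol (log2 change 7.44 ± 0.55; adjusted p = 1.88e-05) and Cyp2a4 at 1.43 and 0.711 CPM with chow and 204, 52.2, 268 and 221 CPM with ethanol (log2 change 7.50 ± 0.97; adjusted p = 0.00108). Cyp2b13 was at 0 and 0.079 CPM with chow and 39.4, 38.6, 16.4 and 13 CPM with ethanol; with 1 count in the chow libraries, the ratio of scaled counts was 793 with a 95% counting interval of 142 to 31300. The P450s of this list also stand in the CAR and PXR list, so the lists are not separate measurements. Igf1, the growth hormone target secreted by hepatocytes, was at 502 and 585 CPM with chow and 477, 487, 344 and 436 CPM with ethanol and did not pass (log2 change -0.31 ± 0.21; adjusted p = 0.37). In the growth hormone and IGF axis 1 of 18 genes, Igfbp3, was called, and it fell. The male-biased list had 4 lower calls in the 6-library fit and 6 without library 12; the female-biased list had 5 and 4 higher calls.

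Several of the largest changes lay outside the lists. Adgrf1, an adhesion G protein-coupled receptor, was at 24 and 13 CPM with chow and 0.453, 0.892, 0.0522 and 0.266 CPM with ethanol (log2 change -5.45 ± 0.43; adjusted p = 2.84e-05). Serpina4-ps1, annotated as a pseudogene, was at 45 and 79.1 CPM with chow and 0.302, 7.53, 0.679 and 2.83 CPM with ethanol, Tff3, a trefoil peptide of mucosal surfaces, at 8.39 and 10.6 CPM with chow and 0.264, 0.991, 1.1 and 0.443 CPM with ethanol, and Col25a1, a transmembrane collagen, at 7.61 and 7.03 CPM with chow and 0.566, 0.991, 0.574 and 0.62 CPM with ethanol. Their log2 changes were -5.24, -4.03 and -3.47, each with no overlap, which the rule that named them requires. Krt4, a keratin of stratified epithelium, was at 0.065 and 0.079 CPM with chow and 71.2, 0.793, 1.46 and 0.797 CPM with ethanol. Library 6 was far above the others, and without it the log2 change was 3.58 and the call was lost (edgeR adjusted p = 0.17). Krt13, a partner keratin, was at 66.5, 0, 0 and 0 CPM with ethanol and at 0 with chow. Among 16 squamous epithelium genes tested 5 were called higher.

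Of 39 genes of the unfolded protein and integrated stress response 5 rose (12.8%) and 0 fell; there were 11 higher calls without library 13, 2 without library 6 or 12 and 10 with DESeq2. Trib3 rose by 2.87; Psat1, for serine synthesis, was at 1.11 and 0.474 CPM with chow and 5.24, 4.46, 10.2 and 7.97 CPM with ethanol and rose by 3.05; and Asns, asparagine synthetase, was at 9.88 and 19.6 CPM with chow and 27.9, 25.5, 42 and 41.2 CPM with ethanol and rose by 1.13. These 3 are targets of the transcription factor ATF4. Leaving out a library ended the calls of Psat1 (adjusted p = 0.137 without library 12) and Asns (adjusted p of up to 0.142 without library 5, 6 or 12). Ddit3, which encodes CHOP, was at 6.89 and 7.9 CPM with chow and 27.1, 31.7, 12.5 and 7.17 CPM with ethanol, with the arms overlapping (log2 change 1.46 ± 0.49; adjusted p = 0.0831). The chaperone Hspa5 was at 1084 and 1028 CPM with chow and 1509, 852, 2212 and 1700.0 CPM with ethanol and did not pass. Among 22 p53 targets, 3 rose and 4 fell. Cdkn1a, the p21 cell cycle inhibitor, was at 2.15 and 15.5 CPM with chow and 0.49, 2.97, 1.15 and 0.531 CPM with ethanol (log2 change -3.0 ± 0.50; adjusted p = 0.0045, or 0.335 without library 12), with chow library 12 the highest and overlap between the arms. Eda2r and Aen fell by 1.82 and 0.66, and Bbc3, which encodes PUMA, rose by 0.99 on the log2 scale. Without library 12 no p53 target was called.

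Calls in the interferon, antigen presentation, macrophage, neutrophil and lymphocyte lists were all lower with ethanol. Many of these calls depended on which libraries served as control. Of 44 interferon stimulated genes 25 fell and 0 rose, with a median log2 change of -0.77. Ifit1, an antiviral RNA-binding protein, was at 9.95 and 18.1 CPM with chow and 2.83, 6.84, 5.95 and 4.16 CPM with ethanol (log2 change -1.73 ± 0.22; adjusted p = 0.000844, or 0.0676 without library 12). Ifi44 fell by 1.87, Ifih1, the RNA sensor MDA5, by 0.67 and Parp14 by 0.73 on the log2 scale. Rsad2 was at 8 and 20.5 CPM with chow and 7.81, 7.53, 6.58 and 7.79 CPM with ethanol, where only chow library 12 stood out, and leaving out a library ended the call of Rsad2 (adjusted p of up to 0.986 without library 12, 14 or 15). The OO libraries of day 0 were near the ethanol libraries: relative to the chow mean, the list median was -0.56 and -0.58 at day 0 and -0.44 to -0.90 with ethanol. In the 6-library fit 1 member was called lower, without library 12 it was 0, and with the day 0 libraries added to the control it was 9.

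Of 15 antigen presentation genes 7 fell and 0 rose, and 5 had a positive log2 change that did not pass. The 7 were H2-Aa, H2-Eb1, H2-Ab1, Ciita, Cd74, H2-DMb1 and Ctss. Summed over the list, CPM was 3659 and 3264 with chow and 3455, 3309, 3295 and 3223 with ethanol. The called members H2-Aa, H2-Eb1, H2-Ab1 and Cd74 were a small part of this sum, each at most 122 CPM. Their lower levels therefore hardly show in it. H2-Aa, an MHC class II chain, was at 67.9 and 59.1 CPM with chow and 14.7, 17.5, 15 and 10.5 CPM with ethanol, a log2 change of -2.11 ± 0.18 (adjusted p = 5.85e-05), and H2-Eb1 was at 46 and 33.9 CPM with chow and 10.1, 12.6, 9.03 and 6.37 CPM with ethanol (log2 change -2.0 ± 0.22; adjusted p = 0.000417). Both were called under every setting. Their day 0 libraries were at 20.8 and 14.5 CPM and 13.7 and 8.62 CPM, nearer to ethanol than to chow. Cd74, the invariant chain, H2-Ab1 and Ciita, the class II transactivator, fell by 1.82, 1.85 and 1.82. The list had 2 lower calls in the 6-library fit, 3 without library 12 and 3 with the day 0 libraries added to the control. Cd74 (adjusted p = 0.1 without library 12) and Ciita (adjusted p = 0.127 without library 12) lost their calls. Bulk tissue cannot tell fewer cells of a type from less RNA per cell.

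Resident macrophage (Kupffer cell) genes were lower in 8 of 20 cases and higher in 0. Csf1r, the growth factor receptor of macrophages, was at 182 and 317 CPM with chow and 117, 126, 146 and 117 CPM with ethanol (log2 change -1.04 ± 0.15; adjusted p = 0.00166, or 0.193 without library 12), with chow library 12 the highest. Adgre1, which encodes F4/80, was at 94.6 and 108 CPM with chow and 47.1, 38.8, 67.3 and 53.7 CPM with ethanol, Folr2 at 26.5 and 41.6 CPM with chow and 17, 16.4, 16.2 and 13.2 CPM with ethanol and Timd4, a receptor for dying cells, at 17.4 and 32.6 CPM with chow and 9.36, 11.6, 9.76 and 10.3 CPM with ethanol; they fell by 1.01, 1.13 and 1.35. Clec4f, a marker specific to Kupffer cells, was at 216 and 266 CPM with chow and 179, 169, 192 and 152 CPM with ethanol and did not pass (adjusted p = 0.0761). Of 27 genes of monocytes and infiltrating macrophages 14 fell and 0 rose. Lyz2, lysozyme, was at 188 and 439 CPM with chow and 58.4, 79.8, 132 and 99.8 CPM with ethanol (log2 change -1.92 ± 0.25; adjusted p = 0.00108, or 0.127 without library 12), and Cx3cr1, a chemokine receptor, at 2.28 and 7.51 CPM with chow and 0.528, 0.991, 2.09 and 0.708 CPM with ethanol. Ms4a6c and Ms4a7 fell by 1.68 and 2.36. Leaving out a library ended the calls of Adgre1 (adjusted p = 0.188 without library 12), Folr2 (adjusted p = 0.352 without library 12), Timd4 (adjusted p = 0.35 without library 12) and Cx3cr1 (adjusted p = 0.185 without library 12). Of the Kupffer and the monocyte genes, 0 and 0 were called lower without library 12, and 0 and 1 with the day 0 libraries added to the control. Summed over the monocyte list, CPM was 1462 in chow library 5 and 2367 in chow library 12, against 1456 to 1751 with ethanol.

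Of 20 neutrophil genes 8 fell; 2 were called lower in the 6-library fit, 0 without library 12 and 1 with the day 0 libraries added to the control. Ltf, lactoferrin, was at 1.24 and 12.6 CPM with chow and 0, 0.594, 0.365 and 0.62 CPM with ethanol (log2 change -4.77 ± 0.57; adjusted p = 0.000619, or 0.122 without library 12), and Ngp, a granule protein, at 0.325 and 10.5 CPM with chow and 0, 1.29, 0.104 and 0.177 CPM with ethanol (adjusted p = 0.00925, or 0.537 without library 12). In both genes chow library 12 was the highest by far. Not all of the list was lower: 3 of the 20 had a positive log2 change, up to 1.47 (Lcn2, described below). Summed over the neutrophil list, CPM was 251 and 665 in chow libraries 5 and 12. In ethanol libraries 6, 13, 14 and 15 it was 758, 1622, 787 and 677, above both chow libraries. Most of this sum was Lcn2 in all 6 libraries, at 139 and 448 CPM with chow and 677, 1366, 724 and 568 CPM with ethanol. The sum therefore mainly follows that gene and not the other members of the list. Csf3r, the G-CSF receptor, and Il1b fell by 1.10 and 1.68. With libraries 6 and 12 left out and no substudy term, which sets day 23 chow library 5 against the day 20 ethanol libraries, Ngp and Csf3r were at log2 changes of 0.47 and 0.03, and feeding and substudy cannot be told apart there. Among 23 lymphocyte genes Ptprc, the leukocyte antigen CD45, at 57.7 and 83.9 CPM with chow and 22.4, 29.6, 34.8 and 34.2 CPM with ethanol, and Cd4 at 1.63 and 2.61 CPM with chow and 0.226, 0.495, 0.313 and 0.354 CPM with ethanol fell; leaving out a library ended the call of Cd4 (adjusted p = 0.126 without library 12). Cxcl13, a chemokine for B cells, was at 9.1 and 62.7 CPM with chow and 1.21, 2.08, 5.59 and 6.2 CPM with ethanol (log2 change -3.46 ± 0.37; adjusted p = 0.000334, or 0.112 without library 12), and Spn, the leukocyte sialoprotein CD43, at 2.41 and 11 CPM with chow and 0.641, 0.396, 0.679 and 0.797 CPM with ethanol (adjusted p = 0.00213, or 0.259 without library 12), again with library 12 highest. Acute phase genes gave 1 call in 32, Serpina3m, which rose. Lcn2 was at 139 and 448 CPM with chow and 677, 1366, 724 and 568 CPM with ethanol (log2 change 1.47 ± 0.58; adjusted p = 0.134), Saa1 at 798 and 1955 CPM with chow and 1307, 2112, 404 and 798 CPM with ethanol (-0.26 ± 0.54) and Hp, haptoglobin, at 6071 and 8841 CPM with chow and 9236, 11591, 8832 and 8995 CPM with ethanol (0.33 ± 0.21), none of which passed; the arms overlapped for Saa1 and Hp, and all 4 ethanol libraries lay above both chow libraries for Lcn2.

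**Figure D3:**
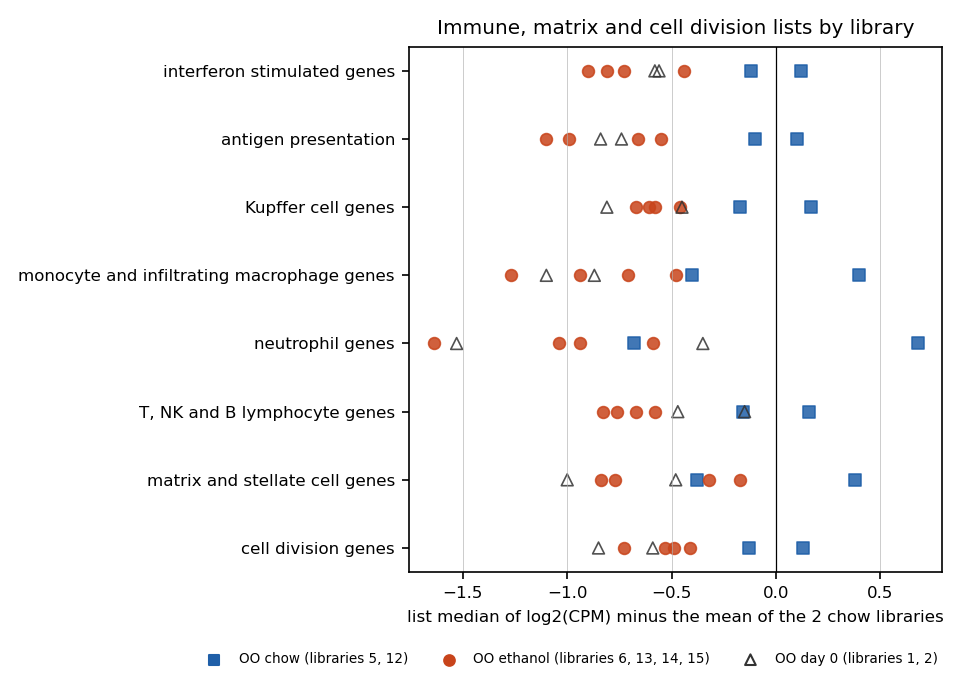
Median over list members of log2(CPM) in each library, relative to the mean of the 2 chow libraries (blue squares), for ethanol libraries (orange circles) and OO day 0 libraries (open triangles). The day 0 libraries lie among or close to the ethanol libraries for most of these lists, and the 2 chow libraries are far apart for neutrophil genes (-0.68 and 0.68).

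Matrix and stellate cell genes were lower in 9 of 40 cases and higher in 0. Eln, elastin, was at 3.45 and 12.2 CPM with chow and 1.21, 2.97, 2.87 and 3.01 CPM with ethanol, Col14a1 at 113 and 141 CPM with chow and 62.2, 82.1, 57.3 and 55.4 CPM with ethanol and Vim, vimentin, at 31.5 and 52.6 CPM with chow and 12.3, 26, 27 and 16.4 CPM with ethanol, and they fell by 1.85, 1.02 and 1.25; Timp2, a protease inhibitor, fell by 1.14. Col1a1, fibrillar collagen, was at 9.43 and 35.7 CPM with chow and 3.24, 12.5, 14.2 and 5.22 CPM with ethanol with overlapping arms (log2 change -1.66 ± 0.48; adjusted p = 0.0462, or up to 0.467 without library 5, 6, 12, 14 or 15). Leaving out a library ended the calls of Eln (adjusted p = 0.194 without library 12), Col14a1 (adjusted p = 0.215 without library 12) and Vim (adjusted p of up to 0.16 without library 5, 6 or 12). Without library 12 the list had 0 lower calls, and with libraries 6 and 12 left out and no substudy term the value for Col1a1 was 0.21. In the 6-library fit the matrix list had 2 lower calls, and with the day 0 libraries added to the control it had 1. Relative to the chow mean, the median of the matrix list was -0.48 and -1 at day 0 and -0.17 to -0.84 with ethanol. Of 21 endothelial genes 0 were called. Among 38 cell division genes Cenpf, a kinetochore protein, fell by 1.82 and E2f8 rose by 0.89, while Mki67 was at 12.2 and 19.5 CPM with chow and 7.13, 6.84, 6.63 and 4.34 CPM with ethanol and did not pass (log2 change -1.34 ± 0.41; adjusted p = 0.0579).

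Other metabolic lists held scattered calls, several of them near the share called over all genes (9.9%). Of 43 genes of the urea cycle and amino acid breakdown 3 rose, among them Gpt, alanine aminotransferase, by 0.68 and Sdsl by 1.16, and 2 fell. Oat, ornithine aminotransferase, was at 1305 and 1059 CPM with chow and 895, 531, 384 and 389 CPM with ethanol (log2 change -1.0 ± 0.23; adjusted p = 0.0184, or 0.563 without library 12). In glycolysis and gluconeogenesis Aldoa rose by 0.63 and Hk1 fell by 0.81. Ppp1r3g, a glycogen-targeting subunit, was at 0.325 and 0.079 CPM with chow and 33.2, 1.29, 0.47 and 0.266 CPM with ethanol, and without library 6 the log2 change of 6.15 ± 1.1 became 2.90 and was not called (adjusted p = 0.413). Pericentral genes, expressed around the central vein, gave 2 higher and 2 lower calls in 20: Rhbg, an ammonium carrier, at 14.1 and 14.1 CPM with chow and 30.6, 36.8, 26.8 and 23.1 CPM with ethanol, rose by 1.07, and Rgn, regucalcin, fell by 1.01, while Glul, glutamine synthetase, was at 1125 and 1059 CPM with chow and 695, 849, 610.4 and 548 CPM with ethanol and did not pass (log2 change -0.68 ± 0.25; adjusted p = 0.103). Among 19 periportal genes 3 rose, with Hsd17b13, a lipid droplet enzyme, up by 0.68. Subunits of the respiratory chain rose in 8 of 35 cases and fell in 0, with a median of 0.34; Uqcrq rose by 0.85, Ndufa2 by 0.66, Sdhc by 0.53 and Cox4i1 by 0.46. With the day 0 libraries in the control, and in the 6-library fit, 0 subunits were called higher. Hepatocyte transcription factors and plasma proteins gave 2 higher calls in 27 (7.41%), Cebpb (1.24) and Ahsg (0.60), near the share over all genes. Among clock genes Tef rose by 1.19 and Npas2 fell by 2.69; Tef was at 174 and 41.7 CPM with chow and 203, 148, 192 and 139 CPM with ethanol, with chow library 5 inside the ethanol range. Leaving out a library ended the calls of Rhbg (adjusted p of up to 0.173 without library 5, 6 or 12), Tef (adjusted p of up to 0.793 without library 12, 14 or 15) and Mt1 (adjusted p of up to 0.2 without library 5, 6 or 12). Mt1, a metallothionein, was at 98 and 46.7 CPM with chow and 681, 497, 101 and 181 CPM with ethanol (log2 change 2.60 ± 0.60), and its day 0 libraries were at 572 and 313 CPM. Hamp2 fell by 3.26, and Hamp, hepcidin, at 262 and 373 CPM with chow and 141, 222, 106 and 117 CPM with ethanol, did not pass (log2 change -1.16 ± 0.64; adjusted p = 0.283).

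The substudies share no library, so each can be read against the other. Of the 521 genes called at day 20 alone, 490 (94%) had the same sign at day 23, against 68% of all genes, and 182 (34.9%) differed by at least 2-fold in the same direction, against 10.5%. Day 23 alone, with 1 library in each arm, gave 90 calls. Cyp2b10 changed by 8.0 at day 20 and 8.98 at day 23 on the log2 scale, Cbr3 by 4.91 and 5.29, Abcc4 by 3.49 and 3.85, and Scd1 by -3.22 and -4.31. All of them met the part of the naming rule that asks for the same sign in both substudies, so their shared sign is no separate test. Among immune genes, Csf1r changed by -1.29 and -0.64, and Rsad2 by -1.5 and -0.03. The test of the difference between substudies called 2 genes (0.0136%), and 673 (4.56%) had an unadjusted p under 0.05. Rnf125, a ubiquitin ligase, was at 84.2 and 184 CPM with chow and 154, 89, 83.7 and 94.2 CPM with ethanol, with changes of -1.05 at day 20 and 0.88 at day 23 (difference 1.92). Ypel2 was at 22 and 40.2 CPM with chow and 64.1, 33.1, 29 and 31.1 CPM with ethanol, with changes of -0.38 and 1.54 (difference 1.92). In both genes chow library 12 exceeded chow library 5 and ethanol library 6 exceeded the other ethanol libraries. None of the immune list members passed this test.

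**Figure D4:**
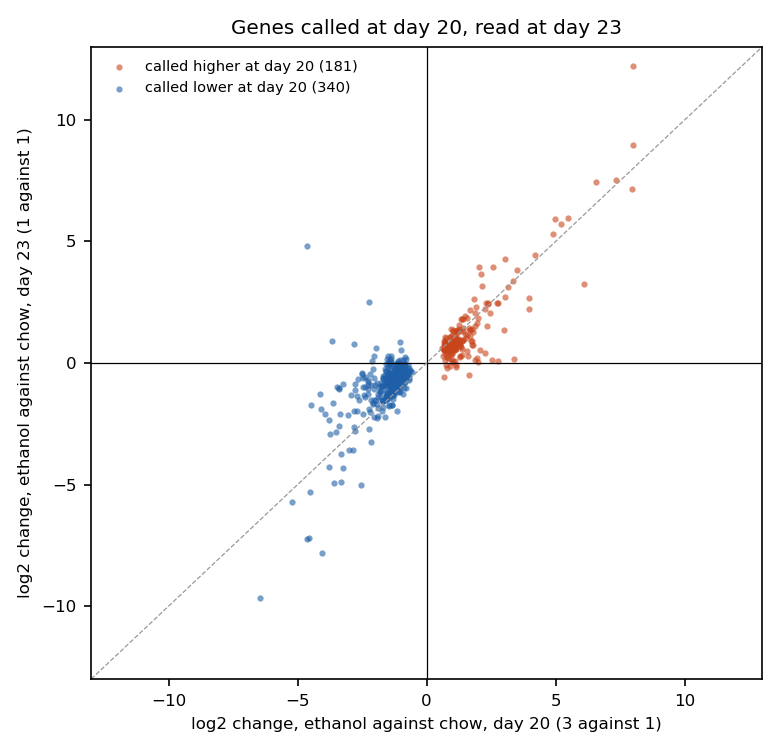
Log2 change at day 23 (1 library against 1) against that at day 20 (3 against 1) for the 521 genes called at day 20, orange for the 181 higher and blue for the 340 lower; the dashed line marks equal changes. Of these genes 490 keep their sign at day 23.

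In CCl4 livers the same feeding comparison called 209 genes (1.42%), and the difference between the OO and the CCl4 effect was tested for each gene. It passed edgeR's test for 34 genes (0.231%), 19 with a higher (0.129%) and 15 with a lower (0.102%) effect in OO livers, and no library is shared between the effects. Of the 42 glutathione and NRF2 genes 7 (Abcc4, Cbr3, Ephx1, Gsta1, Gstm2, Gstm3 and Gstm4) were among the 19. The median log2 effect of that list was 1.17 in OO and 0.00 in CCl4 livers. Mean CPM in OO and CCl4 chow livers was 41.4 and 400 for Gstm3 and 1.36 and 15.2 for Gsta1. It was 0.792 and 4.13 for Cbr3 and 8.84 and 12.5 for Abcc4. The list summed to 10223 and 10167 CPM in OO chow libraries 5 and 12. In CCl4 chow libraries 16 and 17 it was 11539 and 11332. What the higher chow level in CCl4 livers means for these effects was not tested. Gsta1 changed by 5.42 in OO and by -0.15 in CCl4 livers, a difference of 5.58 ± 0.73 (adjusted p = 0.0138, edgeR). For Cbr3 the effects were 5.09 and -0.47 (difference 5.55 ± 0.45; adjusted p = 0.000352). Abcc4 changed by 3.64 and 0.51 (difference 3.12 ± 0.29; adjusted p = 0.000836). Cyp2a5 rose in OO livers and changed by -1.45 in CCl4 livers (difference 4.89 ± 0.66; adjusted p = 0.0138). For Cyp2b10 (8.43 and 5.83), Cyp2b9 (7.44 and 8.04) and Hsd3b5 (-7.25 and -7.51) the difference did not pass (adjusted p = 0.0699, 0.899 and 0.982). Rhbg changed by 1.07 and -1.18 (difference 2.25 ± 0.30; adjusted p = 0.0138). Fabp5 fell in OO livers and changed by 0.43 in CCl4 livers (difference -3.67 ± 0.46; adjusted p = 0.0131). Leukocyte genes were among the 15 with a lower effect in OO livers: Ptprc (-1.36 and -0.14), Cxcl13 (-3.46 and 0.35) and Gpnmb, a gene of lipid-laden macrophages (-2.63 and 1.49). The count of 34 ranged from 2 to 55 when single libraries were left out; it was 2 without library 5 or 6, 5 without library 12 and 3 without CCl4 chow library 16. No gene had a called lower effect in OO livers without library 5, 6, 12 or 16, Ptprc, Cxcl13 and Gpnmb included. The differences for Abcc4 and Cbr3 passed with every single library left out, whereas those for Gsta1, Cyp2a5, Fabp5 and Rhbg did not pass without library 5, 6 or 12 (adjusted p from 0.0708 to 0.149).

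**Figure D5:**
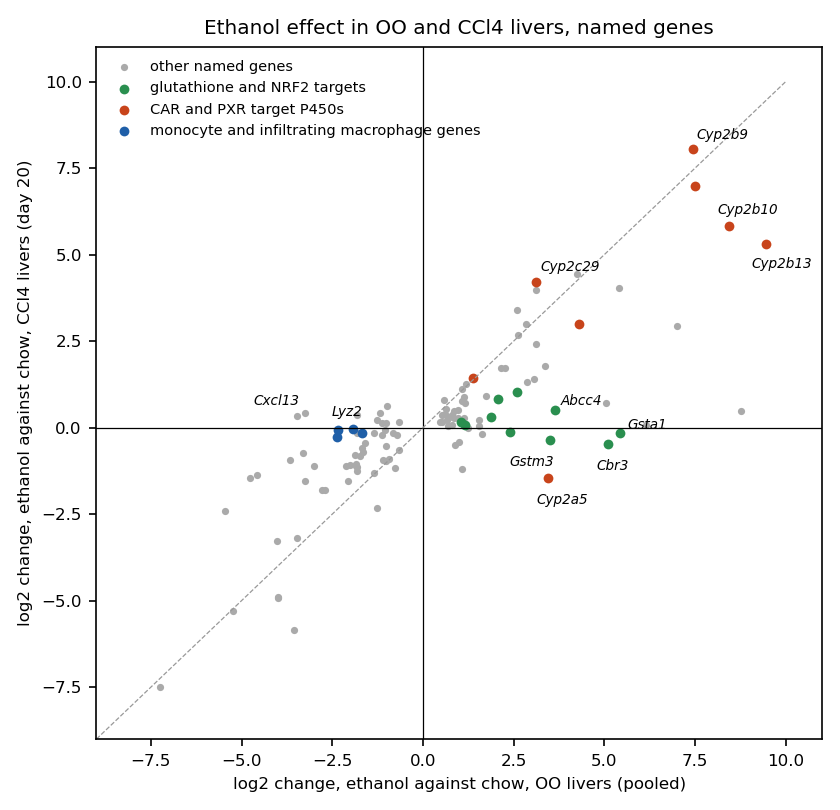
Log2 effect of ethanol against chow in CCl4 livers (vertical) against that in OO livers (horizontal) for the named genes called in OO livers; colours mark genes of 3 lists, and the dashed line marks equal effects. NRF2-list genes such as Gsta1, Cbr3, Gstm3 and Abcc4 lie near 0 on the vertical axis, whereas Cyp2b9, Cyp2b10 and Cyp2c29 are high in both.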

How the data were processed

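Libraries were prepared from liver RNA with the TruSeq mRNA kit, per the labels' protocols. What was deposited is 1 table of raw counts of reads by gene symbol for each library. GSNAP, mm10 and DESeq2 1.12.3 are named in the submitters' processing notes; for the counting program, annotation and strand setting the sources used here give nothing. Each table also holds 5 entries for reads given to no gene, and library sizes and tests leave them out; gene counts made up 42.9% to 49.5% of the reads listed in the 6 libraries. The tables' names give another day than the labels, and the labels were followed.

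TMM scaling was applied to the counts of all 15 libraries, and filterByExpr left 14778 genes. Of these, 30 are on the exocrine pancreas list and were not counted, leaving 14748. The quasi-likelihood test of edgeR 4.0.16 (R 4.3.3) was used with 8 residual degrees of freedom, substudy as a term and Benjamini-Hochberg adjustment. An arm with 1 library is assumed to vary like the others. Log2 changes use a prior count of 0.125. Ethanol libraries 13 to 15 differed from each other by more than counting error (chi-square per degree of freedom of 19.4 to 78.4). Coordinates are from GENCODE M21.

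Named genes came from a rule with 4 parts. The first took up to 12 genes per direction with the largest change, at least 5 CPM in an arm, the same sign in both substudies and no overlap between arms; transcripts without a gene name, antigen receptor segments and the Mup family were passed over. The others took up to 4 called members with the smallest adjusted p from each list with at least 2, the 42 genes of a panel whatever their p (25 were called), and up to 6 genes from each of the other tests. Counts cover all genes so named, a few of which are not reported here. The comparison, the 38 lists and the panel were chosen with earlier results of these data known.

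Alternatives were RLE scaling, other filters, DESeq2 1.42.0, limma-voom (limma 3.58.1) with and without lane as a block, glmTreat at a fold of 1.5, fewer libraries, other controls and each library left out; leaving out libraries 6 and 14 together was added after the data were seen. On simulated data for 14778 genes, of which 200 were changed, the pooled test called 64% of 2-fold and 98% of 4-fold changes, and 4.71% of its calls were false. The simulated libraries had the spread estimated here and no differences of lane, substudy or carried-over tissue. Only genes above a minimum level were changed. The simulation therefore does not give the share of false calls among the 1460.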

Additional observations from a re-analysis of the deposited data

Results flagged for a closer look

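In 14 named genes 1 of the 4 ethanol libraries lay apart from the other 3 by Dixon's test at its 95% critical value, which chance passes in about 1 of 20 groups. Library 6 was the highest for Krt4 (71.2 CPM), Ppp1r3g (33.2 CPM), Apoa4 (1789 CPM), Trib3 (64.3 CPM), Ech1 (318 CPM), Rnf125 (154 CPM) and Ypel2 (64.1 CPM), and the lowest for Eln (1.21 CPM). Library 13 was the highest for Hp (11591 CPM), Ngp (1.29 CPM) and Col25a1 (0.991 CPM), and the lowest for Nr1h4 (136 CPM). Library 15 was the lowest for Abcc4 (84.5 CPM) and the highest for Slco1a1 (46.8 CPM). Library 6 is also the ethanol library taken at day 23, so library and substudy cannot be told apart for its values.

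The ethanol effect differed between OO and CCl4 livers by the edgeR test of the difference for 12 named genes. The OO effect was higher, on the log2 scale, by 5.58 for Gsta1, 5.55 for Cbr3, 4.89 for Cyp2a5, 3.85 for Gstm3, 3.12 for Abcc4, 2.40 for Cyp7b1, 2.25 for Rhbg and 1.56 for Ephx1. It was lower for Cxcl13 (-3.81), Fabp5 (-3.67), Ptprc (-1.21) and Elovl5 (-1.14). Cyp7b1 rose in neither: it changed by -0.80 in OO livers, which was not called, and by -3.20 in CCl4 livers. Between substudies the effect at day 23 exceeded that at day 20 by 1.92 for Rnf125 and by 1.92 for Ypel2.

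RNA of tissues other than liver appeared in single libraries, in unscaled summed CPM. Skeletal and smooth muscle genes reached 116 in library 6 and 556 in library 14, against 15.2 and 19.3 in the chow libraries 5 and 12. Pancreas genes other than Dmbt1 reached 212 in library 6, against 15.3 in its day 23 control, library 5; the day 20 chow library 12 was higher still, at 248. Muscle RNA was also high in 1 CCl4 ethanol library, library 20, at 685.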

How the results depend on the processing

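The chow arm, with 1 library per substudy, sets most of the limits. Other scaling (RLE), other filters on low counts, DESeq2, limma-voom with or without lane as a block, no substudy term and removal of pancreas genes gave 1113 to 1958 calls, within 1.5 times the reported 1460. No paired analysis was possible because the libraries compared share no replicate number. The cause of the shifts given next was not tested, beyond fewer libraries or a stricter hypothesis where the setting itself brings them.

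Calls (higher, lower) were 147 (91, 56) in the 6 OO libraries alone, 521 (181, 340) at day 20 alone, 90 (64, 26) at day 23 alone, 94 (56, 38) without libraries 6 and 12 and with no substudy term, 159 (73, 86) for a fold of 1.5 with glmTreat and 357 (103, 254) without libraries 6 and 14, a setting chosen after the data were seen. Higher calls were 34.7% at day 20 alone and 71.1% at day 23 alone, against 53.4% as reported. With the day 0 libraries added to the control there were 1039 calls, 737 higher (70.9%) and 302 lower. Leaving out single libraries gave 90 to 2425 calls, 65 to 1353 higher and 25 to 1072 lower. Of the 1460 calls, 143 were shared with the fit on the 6 libraries and 705 with the fit that added day 0.

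For the substudy difference DESeq2 called 11 genes (6 higher, 5 lower) and no filter 4 (4 higher). Leaving out library 13, 14 or 15 gave 1 to 2 calls, 1 to 2 higher and 0 to 1 lower; libraries 5, 6 and 12 are the only ones of their arms, so that test cannot be made without them. For OO against CCl4 livers DESeq2 called 228 (120 higher, 108 lower), no filter 54 (29 higher, 25 lower), and RLE scaling 25 with 9 lower. Leaving out single libraries gave 2 to 55 calls, 2 to 30 higher and 0 to 25 lower.

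Signs turned for 10 genes, 6 of them not called as reported. Over the single libraries left out, log2 changes ran from -0.34 to 0.10 for Hmgcs1, -0.38 to 1.56 for Ypel2, -1.05 to 0.89 for Rnf125, -0.82 to 0.73 for Saa1 and -0.02 to 0.34 for Cyp2e1. Without library 13 Hmgcs1 was at 0.06, and without library 14 Saa1 at 0.04. Day 20 alone gave 0.10 for Hmgcs1 and -0.38 for Ypel2. Day 23 alone gave 0.71 for Saa1, 0.88 for Rnf125 and -0.01 for Cyp8b1. Hmgcs1 was at 0.25 with day 0 added and at 0.07 with no substudy term. Without libraries 6 and 14 Hmgcs1 was at 0.14 and Ypel2 at -0.33. The setting without libraries 6 and 12 also drops the substudy term and sets day 23 chow against day 20 ethanol, so feeding and substudy cannot be told apart in it. There Hmgcs1 was at 0.35, Saa1 at 0.50, Rnf125 at 0.10, Cyp2e1 at -0.02, and the called genes Ngp, Csf3r, Col1a1 and Tef at 0.47, 0.03, 0.21 and -0.11.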
